A study of Homo sapiens with 24 samples.

Results

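Eukaryotic translation initiation factors are the proteins that load mRNA and initiator tRNA onto ribosomes, and their genes carry symbols beginning with EIF followed by the number of the factor. Members were taken as all gene symbols that begin with EIF1 to EIF6, leaving out the EIF2C symbols (older names of Argonaute genes, which are not initiation factors), and an average of 1 TPM or more across all 24 libraries. The rule matched 59 symbols, of which 54 passed and 5 (EIF1B-AS1, EIF3IP1, EIF4E1B, EIF4E3 and EIF5AL1) did not, out of 13416 genes that passed the same filter. The 54 members comprised 5 eIF1, 14 eIF2, 14 eIF3, 14 eIF4 and 4 eIF5 genes, the single eIF6 gene, and 2 antisense RNAs, EIF1AX-AS1 and EIF3J-AS1, which matched by name only and encode no factor.

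All libraries came from a stable Tet-off line of U2OS, a human osteosarcoma cell line, that carries a switchable gene for the S254D mutant of TOB2, in which an aspartate stands in for a phosphorylated serine. Doxycycline in the medium kept the transgene off in the uninduced arm, and its omission turned the transgene on in the induced arm, so drug and transgene changed together. Cells were labelled with bromouridine (BrU), a uridine analog that enters new RNA, and cytoplasmic RNA was taken after chases of 0, 0.5, 1, 2, 4 and 6 h, from which labelled RNA was pulled down with an antibody to BrU. Each of the 12 groups of arm and time held 2 libraries, replicates 1 and 2, which the labels do not describe as separate cultures. The p-values therefore measure the spread between these libraries, and this may be technical. For slopes fitted as 1 line per arm they also take in any departure of the course from a straight line. The labels call the line custom made and do not say whether it is 1 clone.

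Values are TPM, abundances per transcript length scaled to 1 total per library, so a member that rises has become a larger share of the labelled cytoplasmic RNA, and neither its absolute amount nor a loss common to all RNAs can be read from it. Depth is unknown. Fewer cells and less RNA per cell cannot be told apart either. TOB2 itself lay between 92.3 and 267 TPM in the uninduced libraries and between 499 and 725 TPM in the induced ones, with no overlap; this value does not separate the transgene from the cells' own gene. The labels call the cells both bone and epithelial. Of the osteoblast markers 3 of 10 passed the filter, while SP7, ALPL and IBSP averaged below 1 TPM. All 10 together summed to 10.17 to 22.3 TPM in the uninduced and 14.2 to 29.4 TPM in the induced libraries. Of the epithelial markers 3 of 8 passed (KRT8, KRT18 and CLDN4), with EPCAM and CDH1 below 1 TPM. All 8 summed to 1741 to 2894 and 1769 to 4191 TPM. Of the mesenchymal markers 4 of 7 passed, and all 7 summed to 463 to 967 and 429.96 to 1133 TPM. Of the leukocyte markers 3 of 7 passed, and PTPRC and CD3E stayed below 1 TPM. All 7, mainly LYZ, summed to 21.0 to 52.8 and 24.5 to 72.1 TPM.

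Initiation begins when the eIF2 trimer brings initiator tRNA to the small ribosomal subunit, to which eIF1, eIF1A, eIF3 and eIF5 also bind. The eIF4F complex, made of the cap-binding protein eIF4E, the helicase eIF4A and the scaffold eIF4G, then recruits this assembly to the capped end of an mRNA, and eIF5B joins the large subunit once a start codon is found. Kinases that phosphorylate eIF2 and proteins that sequester eIF4E are the main brakes, and several carry EIF symbols of their own. Many mRNAs of the translation machinery, such as that of EIF4B, begin with a cytosine followed by a run of pyrimidines, the 5′ terminal oligopyrimidine tract that links their translation to growth signals.

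A start of that kind was looked for at the RefSeq transcription starts of the members (assembly GRCh38.p14; the deposited values were made on hg19, and no coordinate was carried between builds). The definition, C at the start and at least 5 C or T letters in a row from it on the transcribed strand, was chosen after the values had been seen. Of the 54 members, 44 had a start in the RefSeq table that could be used, and 9 of these 44 (20.5%) met the definition at 1 or more of their starts, against 7.37% of the 9434 genes passing the filter with a start and 4.07% of all 35116 promoters in the table. Among them were 4 of the 8 eIF3, 3 of the 12 eIF2 and 2 of the 13 eIF4 members with a start, and none of the eIF1, eIF5 or eIF6 members. The windows below run from 15 bases before the start to 15 bases from it, 5′ to 3′, with the pyrimidines that run unbroken from the start in capitals. They are shown because the members with the steepest and the flattest course in the eIF4 group, EIF4B and EIF4A2, both have such a start, whereas EIF4A1 has a shorter run and EIF4A3 none.
EIF4B (chr12:53006441-53006470, plus strand): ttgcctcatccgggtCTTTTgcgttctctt
EIF4A2 (chr3:186783562-186783591, plus strand): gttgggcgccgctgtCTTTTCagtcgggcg
EIF4A1 (chr17:7572810-7572839, plus strand): aggcgggcactccgcCCTagtttctaagga
EIF4A3 (chr17:80147114-80147143, minus strand): gttctcggcagcggcacagcgaggtcggca
EIF2S3 (chrX:24054941-24054970, plus strand): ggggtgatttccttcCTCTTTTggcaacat
EIF2D (chr1:206612451-206612480, minus strand): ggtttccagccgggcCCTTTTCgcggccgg
EIF2A (chr3:150546772-150546801, plus strand): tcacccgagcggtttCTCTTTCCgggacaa
EIF3D (chr22:36529152-36529181, minus strand): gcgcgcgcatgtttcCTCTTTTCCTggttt
EIF3F (chr11:7987322-7987351, plus strand): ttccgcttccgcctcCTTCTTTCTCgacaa
EIF3K (chr19:38619173-38619202, plus strand): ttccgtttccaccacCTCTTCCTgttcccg
EIF3M (chr11:32583816-32583845, plus strand): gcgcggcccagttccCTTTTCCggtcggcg

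The first comparison asked how each member's share of the labelled RNA moved over the chase. Most initiation factor mRNAs became a larger share. In the uninduced arm 39 of 54 members rose, 4 fell and 11 did not pass (limma on log2(TPM + 1), adjusted p under 0.05), and in the induced arm 39 rose, 5 fell and 10 did not pass. Among all genes tested, 42.8% rose and 22.3% fell in the uninduced arm, and 41.6% rose and 29% fell in the induced arm. The median slope of the members was 0.15 log2 per hour without and 0.16 with induction, beside 0.039 and 0.028 for all genes. The highest mean fell at 6 h for 38 members without and 40 with induction, and the lowest at 0 h for 35 and 37. Together the members held between 0.746% and 1.69% of a library's TPM, and the noncoding RNAs RMRP, MIR6723 and RPPH1 between 7.14% and 27.5%, and any change of so large a share moves all others; the counts without these 3 RNAs are among the alternatives at the end. Under median-of-ratios scaling the uninduced median of all genes moved from 0.039 to -0.0052 log2 per hour. This shift is nearly as large as some slopes called as rises, such as that of EIF1 in that arm (0.048). Of the member calls in that arm 79.1% in place of 90.7% were then rises, as were 48.4% in place of 65.8% of the calls of all genes.

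**Figure D1:**
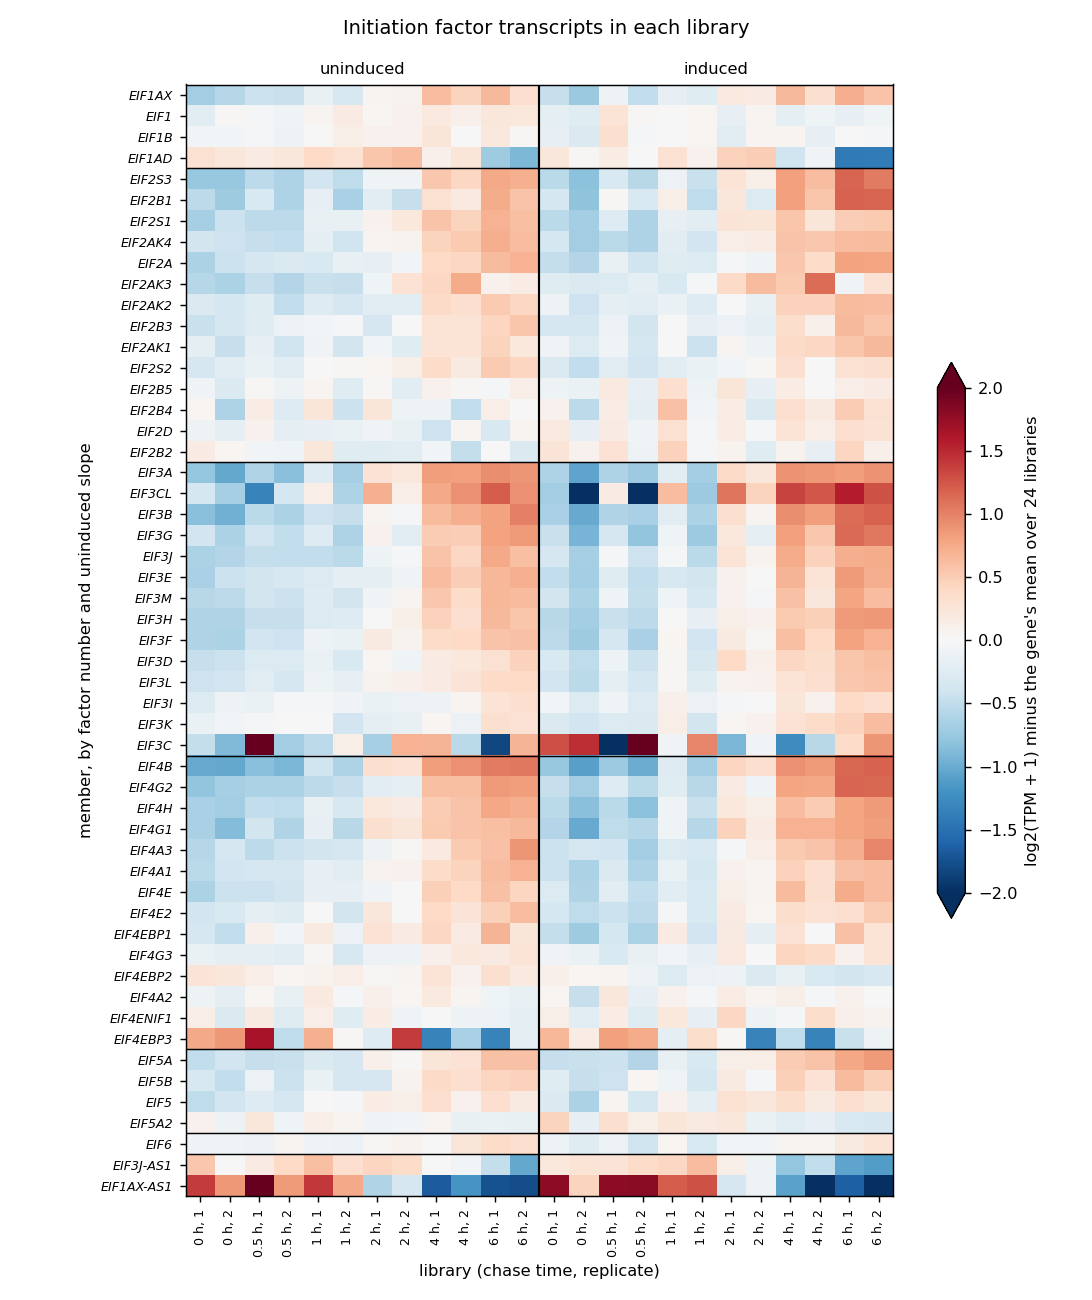
Each row is a member and each column a library (chase time, replicate), with log2(TPM + 1) minus the gene's own mean over the 24 libraries in color, with values beyond the ends of the scale drawn in the end color. Most rows run from blue at 0 h to red at 6 h in both arms, and EIF1AX-AS1, EIF3J-AS1 and EIF1AD run the other way; EIF1AY is not drawn.

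The 3 groups of 14 shared this course. In the eIF2 group 10 members rose and none fell in either arm (median slopes 0.15 and 0.15), in the eIF3 group 12 rose without and 13 with induction, with none falling (0.20 and 0.22), and in the eIF4 group 10 rose and 1 fell in each arm (0.16 and 0.17). Slopes ranged from -0.04 to 0.26 in the eIF2, from -0.06 to 0.32 in the eIF3 and from -0.30 to 0.37 in the eIF4 group in the uninduced arm, so the ranges overlapped. Summed over its members, the eIF2 group went from 662 ± 8.82 TPM at 0 h to 1364 ± 36.7 at 6 h in the uninduced arm (SD, n = 2) and from 671 ± 74.5 to 1539 ± 37.2 in the induced arm. The eIF3 group went from 1443 ± 4.72 to 3314 ± 30.2 and from 1446 ± 187 to 3647 ± 77.5 TPM. The eIF4 group, the most abundant, went from 3022 ± 70.6 to 6902 ± 97.9 and from 2999 ± 395 to 7269 ± 90.5 TPM. At 0 h the 3 sums were alike in the 2 arms within the spread of the induced libraries, and at 6 h each was higher in both induced libraries; no test was run on a sum over members.

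**Figure D2:**
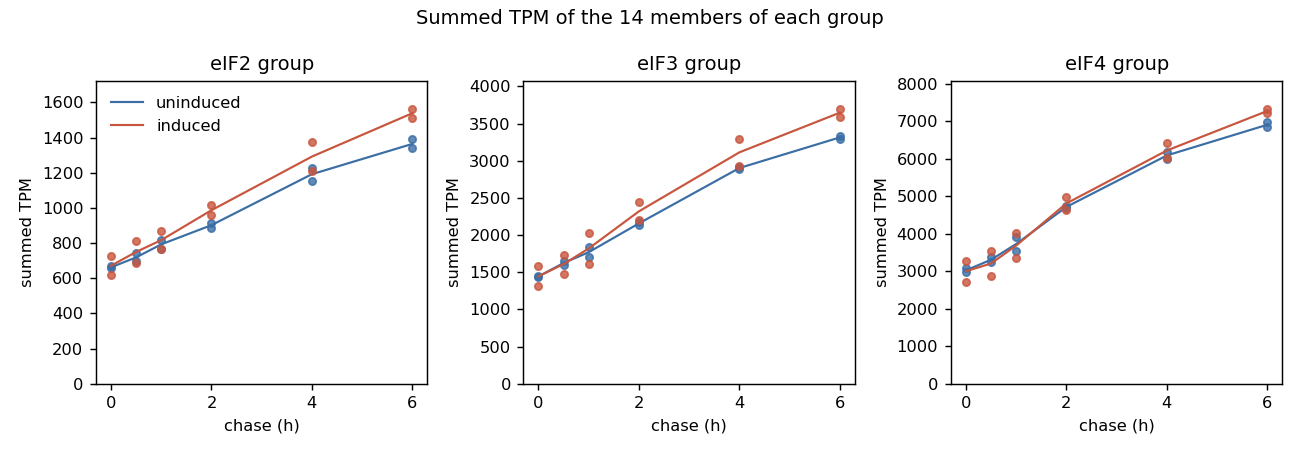
Summed TPM of the 14 eIF2, 14 eIF3 and 14 eIF4 members against hours of chase; points are libraries and lines join the means of the 2 libraries of each arm and time. All 3 sums climb at every step in both arms, and the induced points lie above the uninduced ones at 6 h.

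Among the factors that bind the small subunit, eIF1 and eIF1A keep it open for scanning, and eIF5 triggers the hydrolysis of the GTP on eIF2. EIF1AX rose in both arms, from 103 and 113 TPM at 0 h to 264 and 211 at 6 h without induction and from 122 and 99.3 to 277 and 249.5 with it (slopes 0.20 ± 0.026 and 0.20 ± 0.026 log2 per hour, SE). EIF1AY, a near-identical copy of EIF1AX on chromosome Y, is counted among the members and its level is not given; reads that both copies share make the values of EIF1AX uncertain. EIF5 rose more slowly, with slopes of 0.11 ± 0.027 and 0.10 ± 0.027. EIF1, the most abundant of them, rose in the uninduced arm (slope 0.048 ± 0.017, adjusted p = 0.0165) and had a slope of -0.019 ± 0.017 in the induced arm (adjusted p = 0.32). The uninduced rise of EIF1 became -0.0018 log2 per hour under median-of-ratios scaling. Its paralog EIF1B passed in neither arm (0.029 ± 0.019 and 0.0040 ± 0.019).

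EIF1AD, named for an eIF1A-like domain, was the protein-coding member with the clearest fall. In the uninduced arm its TPM was 129.5 and 122 at 0 h, 117 and 123 at 0.5 h, 138 and 129.9 at 1 h, 155 and 161 at 2 h, 112 and 124 at 4 h, and 63.6 and 55.9 at 6 h. In the induced arm it was 123 and 106, 116 and 105, 129 and 111, 144 and 148, 79.3 and 99.9, and 38.8 and 38.9 at the same times. It thus peaked at 2 h in both arms before it dropped, and its 6 h libraries were the lowest of their arm. The slopes were -0.16 ± 0.044 (adjusted p = 0.00348) and -0.24 ± 0.044 (adjusted p = 4e-05).

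Of the eIF2 trimer, EIF2S1 encodes the alpha subunit that stress kinases phosphorylate, EIF2S2 the beta subunit and EIF2S3 the gamma subunit that binds GTP. All 3 rose in both arms. EIF2S3 was steepest, with 173 and 173 TPM at 0 h, 202 and 189 at 0.5 h, 224 and 204 at 1 h, 275 and 279 at 2 h, 423 and 390.3 at 4 h, and 494 and 478 at 6 h without induction. With induction the values were 201 and 164, 235 and 198, 268 and 214, 353 and 316, 516 and 446, and 658 and 602. The fold of 6 h over 0 h was 2.82 and 3.46 in the 2 arms, against 2.31 and 2.19 for EIF2S1 and 1.68 and 1.62 for EIF2S2. The slopes were 0.26 ± 0.020 and 0.30 ± 0.020 for EIF2S3, 0.21 ± 0.026 and 0.18 ± 0.026 for EIF2S1, and 0.12 ± 0.016 and 0.11 ± 0.016 for EIF2S2.

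The subunits of eIF2B, which recharges eIF2 with GTP, divided further. EIF2B1 (alpha) and EIF2B3 (gamma) rose in both arms, with slopes of 0.21 ± 0.028 and 0.28 ± 0.028 and of 0.14 ± 0.019 and 0.15 ± 0.019. EIF2B2 (beta), EIF2B4 (delta) and EIF2B5 (epsilon) passed in neither arm, with slopes from -0.039 to 0.034 without and from 0.0036 to 0.081 with induction. The kinases of eIF2 alpha all rose in both arms: EIF2AK1 (the heme-regulated kinase HRI), EIF2AK2 (PKR, activated by double-stranded RNA), EIF2AK3 (PERK, of the endoplasmic reticulum) and EIF2AK4 (GCN2, activated by uncharged tRNA). EIF2AK4 was the steepest of them (0.20 ± 0.022 and 0.22 ± 0.022). EIF2AK3 was highest at 4 h rather than at 6 h in both arms. EIF2A and EIF2D, proteins that can deliver tRNA without the eIF2 trimer, differed: EIF2A rose in both arms (0.20 ± 0.015 and 0.22 ± 0.015) and EIF2D passed in neither (-0.0060 ± 0.021 and 0.047 ± 0.021).

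eIF3 is the largest initiation factor and a scaffold for the others. Its subunit mRNAs rose at unlike rates. Leaving aside the copies EIF3C and EIF3CL, described below, EIF3A, EIF3B and EIF3G had the steepest slopes in both arms, with 6 h over 0 h folds of 3.49, 3.55 and 2.55 without and 3.25, 3.97 and 3.41 with induction. EIF3B had 80.2 and 73.3 TPM at 0 h, 98.7 and 92.4 at 0.5 h, 108 and 105 at 1 h, 151 and 140.3 at 2 h, 224 and 241 at 4 h, and 253 and 293 at 6 h without induction. With induction it had 91.3 and 71.0, 94.6 and 91.5, 124 and 93.0, 179.6 and 149.5, 277 and 257, and 316 and 329 TPM. From 2 h on, every library of EIF3B was above all libraries of 0 to 1 h in its arm. EIF3E, the most abundant subunit, rose with slopes of 0.21 ± 0.019 and 0.23 ± 0.019. At the other end EIF3I (0.066 ± 0.015 and 0.088 ± 0.015) and EIF3K (0.058 ± 0.020 and 0.15 ± 0.020) rose least; the uninduced slope of EIF3K was -0.017 after quantile normalization.

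EIF3C and EIF3CL are near-identical copies and their values cannot be read apart. At 0.5 h of the induced arm EIF3C was listed at 0 and 58.4 TPM and EIF3CL at 62.2 and 0.19 TPM in replicates 1 and 2. Their sum, 62.2 and 58.6 TPM, was nearly the same in both libraries. The sum went from 50.0 and 39.8 TPM at 0 h to 132 and 122 at 6 h in the uninduced arm, and from 59.3 and 39.95 to 180.1 and 155 in the induced arm. Fitted as 1 gene, an alternative chosen after seeing the data, it rose with slopes of 0.24 ± 0.038 (adjusted p = 6.26e-06) and 0.29 ± 0.038 (adjusted p = 3.48e-07). Fitted apart, EIF3C passed in neither arm (-0.059 ± 0.17 and -0.073 ± 0.17), and EIF3CL passed in the induced arm only (0.31 ± 0.15 and 0.58 ± 0.15), a contrast between arms that was not past the threshold (adjusted p of the slope difference 0.663).

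In the eIF4 group, the cap-binding protein gene EIF4E and its homolog EIF4E2, which encodes a repressive cap-binding protein, rose alike (0.18 ± 0.020 and 0.20 ± 0.020, and 0.15 ± 0.020 and 0.15 ± 0.020). Apart from EIF3CL, the steepest member was EIF4B, a cofactor that stimulates the eIF4A helicase. In the uninduced arm it had 316 and 313 TPM at 0 h, 356 and 339 at 0.5 h, 482 and 413 at 1 h, 798 and 779.7 at 2 h, 1133 and 1199.6 at 4 h, and 1311 and 1327 at 6 h. In the induced arm it had 377 and 299, 386 and 319.9, 534 and 399.9, 861 and 802, 1205 and 1151, and 1419.5 and 1447 TPM. Every library from 2 h on was thus above every earlier one in its arm, with a fold of 4.19 and 4.24 between 0 and 6 h and slopes of 0.37 ± 0.038 (adjusted p = 1.35e-08) and 0.37 ± 0.038 (adjusted p = 6.35e-09). EIF4H, a smaller cofactor related to EIF4B, rose by 2.69-fold and 2.84-fold.

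The helicase paralogs went different ways. EIF4A1, the main cytoplasmic helicase and the most abundant member, had 974 and 1088 TPM at 0 h, 1119 and 1121 at 0.5 h, 1268 and 1224 at 1 h, 1493 and 1514 at 2 h, 1836 and 1924 at 4 h, and 2175 and 2310.3 at 6 h in the uninduced arm. EIF4A2, a close paralog, had 509.6 and 475, 560.4 and 492, 622 and 529, 588 and 563, 624 and 568, and 514 and 491 TPM at these times. In the induced arm EIF4A1 went from 1056 and 913 to 2131 and 2169 TPM, and EIF4A2 from 562 and 394 to 578 and 549 TPM. EIF4A1 rose in both arms (0.19 ± 0.017 and 0.19 ± 0.017), and EIF4A2 passed in neither (0.0034 ± 0.022, adjusted p = 0.901, and 0.023 ± 0.022, adjusted p = 0.345). The uninduced slope of EIF4A2 was -0.046 with median-of-ratios scaling and -0.042 with protein-coding transcripts alone. EIF4A3, the helicase of the exon junction complex, rose like EIF4A1 (0.21 ± 0.019 and 0.24 ± 0.019).

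**Figure D3:**
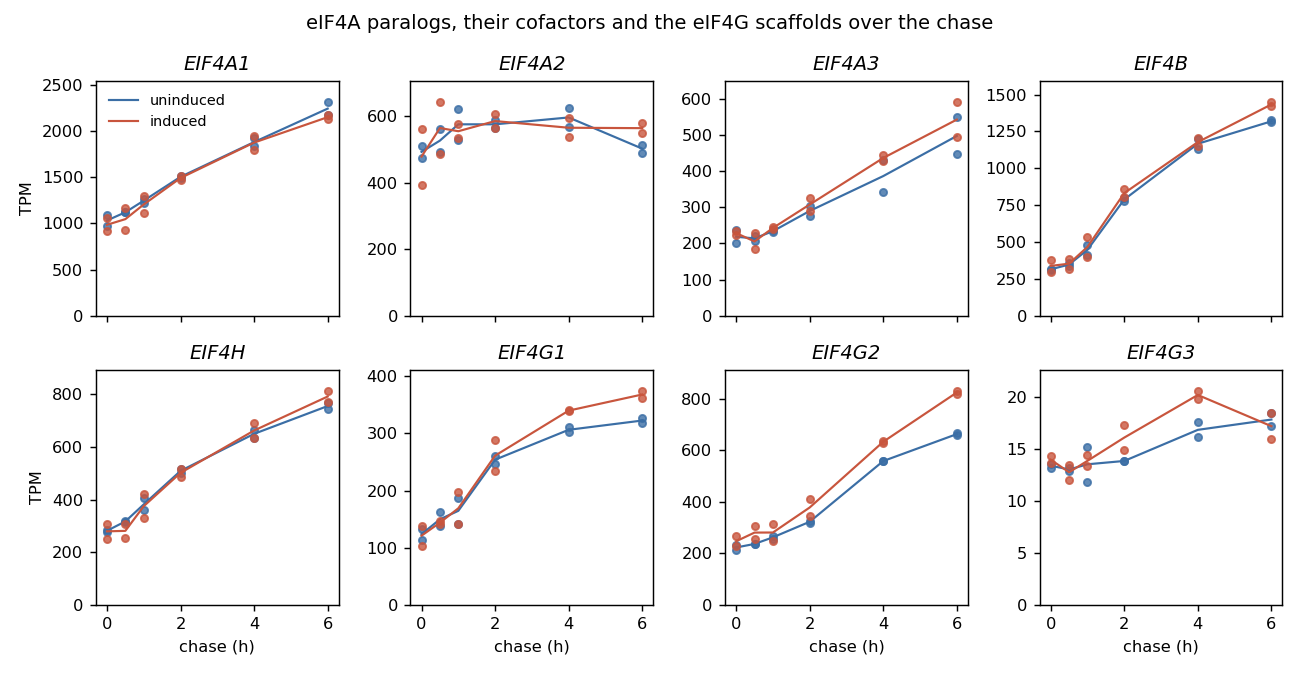
TPM of the eIF4A paralogs, the cofactors EIF4B and EIF4H and the eIF4G scaffolds against hours of chase; points are libraries and lines join the means of the 2 libraries of each arm and time. EIF4A2 stays between 394 and 641 TPM while EIF4A1 and EIF4B are at 2131 and 1311 TPM or more in every 6 h library.

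The scaffolds EIF4G1, EIF4G2 (also called DAP5, which lacks the part that binds eIF4E) and EIF4G3 rose in both arms, EIF4G2 most (0.28 ± 0.019 and 0.31 ± 0.019) and EIF4G3, the least abundant, least (0.076 ± 0.019 and 0.078 ± 0.019). The genes of proteins that bind eIF4E outside the eIF4F complex did not share a direction. EIF4EBP1 rose in both arms (0.11 ± 0.029 and 0.15 ± 0.029), EIF4EBP2 fell in the induced arm only (0.017 ± 0.016 and -0.056 ± 0.016), EIF4EBP3, at a mean of 2.0 TPM, fell in the uninduced arm only (-0.30 ± 0.089 and -0.18 ± 0.089), and EIF4ENIF1, which carries eIF4E into the nucleus, passed in neither (-0.012 ± 0.026 and 0.026 ± 0.026). None of these differences between arms passed the test of the slope difference.

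EIF5B, the GTPase of subunit joining, rose in both arms (0.15 ± 0.022 and 0.15 ± 0.022), as did EIF6, which keeps free large subunits from joining too early (0.069 ± 0.015 and 0.073 ± 0.015; -0.0043 in the induced arm with protein-coding transcripts alone). EIF5A, which is known for helping elongation and carries the amino acid hypusine, rose from 785 and 848 to 1655 and 1667 TPM without and from 803 and 809 to 1892 and 2006 TPM with induction. Its paralog EIF5A2 was far lower, at 8.58 and 7.47 TPM at 0 h and 7.30 and 7.18 at 6 h without and at 11.3 and 7.07 and 6.35 and 6.16 TPM with induction. EIF5A2 fell in the induced arm (-0.093 ± 0.021, adjusted p = 0.000399) and did not pass in the uninduced arm (-0.030 ± 0.021).

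The antisense RNAs fell in both arms. EIF1AX-AS1 had 18.6 and 12.6 TPM at 0 h, 29.5 and 12.4 at 0.5 h, 19.0 and 11.7 at 1 h, 3.92 and 4.96 at 2 h, 1.36 and 2.31 at 4 h, and 1.24 and 1.18 at 6 h without induction, and went from 24.9 and 9.20 to 1.40 and 0 TPM with it. These were the lowest slopes of all members (-0.57 ± 0.079 and -0.69 ± 0.079), while EIF1AX rose. EIF3J-AS1 had slopes of -0.17 ± 0.033 and -0.26 ± 0.033, while EIF3J rose (0.23 ± 0.024 and 0.21 ± 0.024). No source used here says that strand was kept, so reads from an antisense RNA and from its partner gene cannot be told apart where they overlap.

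**Figure D4:**
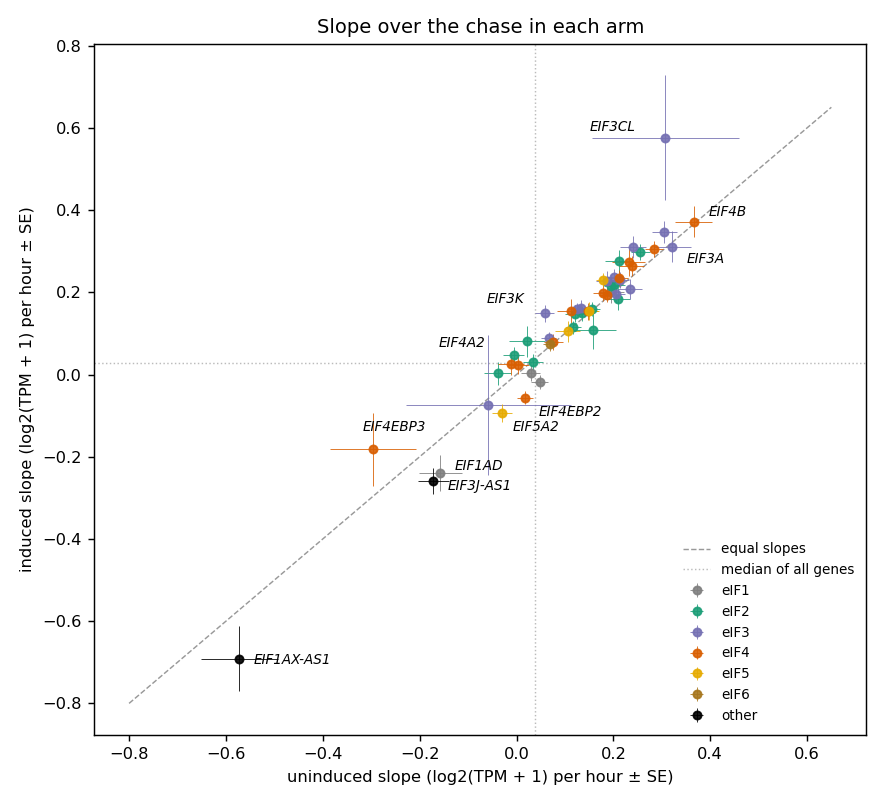
Induced against uninduced slope (log2(TPM + 1) per hour, bars show SE) of 53 members, colored by factor number, with a dashed line of equal slopes and dotted lines at the medians of all genes. Most points lie near the dashed line, EIF4B at 0.37 on both axes and EIF1AX-AS1 at -0.57 and -0.69. Further from it are EIF3CL, at 0.31 uninduced and 0.58 induced, and EIF4EBP3, at -0.30 and -0.18.

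Below the gene level, 99 transcripts of the 54 members passed the filter on their own. Of these, 47 rose and 9 fell in the uninduced arm and 49 rose and 12 fell in the induced arm (limma over 21749 transcripts, of which 26.2% rose and 14.1% fell, and 27.5% rose and 19.1% fell), and none passed in the slope difference (0.0046% higher and 0.0276% lower of all). Transcripts of EIF4G2 moved apart: NM_001042559 rose by 0.59 and 0.58 and NM_001418 by 0.23 and 0.25 log2 per hour, and NM_001172705 fell by 0.54 and 0.58. Transcripts of EIF5A and EIF5 did so too, with NM_001143762 falling by 0.27 and 0.28 and NM_183004 by 0.17 and 0.17, while the other EIF5A and EIF5 transcripts that passed the filter rose. These are estimated splits of reads that the transcripts share. They were chosen after the values had been seen.

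The ratio of paralogs within a library was taken on TPM plus a pseudocount of 1, so that a factor common to a library cancels except for the pseudocount, which weighs most for low partners such as EIF5A2. For 10 pairs of members the ratios were compared by permutation tests adjusted over the pairs. The EIF4A1 to EIF4A2 ratio went from 1.06 log2 at 0 h to 2.16 at 6 h without and from 1.06 to 1.93 with induction, slopes of 0.18 ± 0.016 and 0.17 ± 0.017 per hour (SE, permutation adjusted p = 0.0001 and 6.67e-05 over 12 libraries each). Slopes of the ratio passed in both arms for 5 further pairs. They were 0.16 and 0.20 for EIF4G1 to EIF4G3, 0.21 and 0.32 for EIF5A to EIF5A2, 0.096 and 0.21 for EIF4EBP1 to EIF4EBP2, 0.13 and 0.11 for EIF4B to EIF4H, and -0.081 and -0.070 for EIF2AK1 to EIF2AK4, whose induced slope (permutation adjusted p = 0.0498) was lost without any of 9 libraries. The ratios EIF4A1 to EIF4A3, EIF4E to EIF4E2, EIF4G1 to EIF4G2 and EIF1 to EIF1B passed in neither arm, with slopes between -0.052 and 0.044.

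Between the arms, the question was whether the mutant TOB2, a member of the BTG/TOB family that brings the CCR4-NOT deadenylase to mRNAs, changed the course of these mRNAs. No member passed the test of the slope difference, induced minus uninduced (limma; 0.00745% of all genes tested passed as higher and 0.335% as lower). At an unadjusted p under 0.05 there were 5 of 54 members, 2 higher and 3 lower, and 1673 of 13416 genes, 356 higher and 1317 lower. The share of members is not above that of all genes. The 5 were EIF4EBP2 (-0.073 ± 0.023 log2 per hour, adjusted p = 0.167), EIF3K (0.090 ± 0.029, adjusted p = 0.17), EIF1 (-0.067 ± 0.024, adjusted p = 0.227), EIF5A (0.051 ± 0.022, adjusted p = 0.333) and EIF5A2 (-0.063 ± 0.030, adjusted p = 0.389). The median slope difference was 0.018 in the eIF2, 0.032 in the eIF3 and 0.021 in the eIF4 group, beside -0.0094 for all genes. With 2 libraries per time, a p above the threshold does not show that the slopes were alike.

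Behind the smallest of these p-values, EIF4EBP2 had 23.7 and 23.4 TPM at 0 h, 21.7 and 20.3 at 0.5 h, 20.9 and 21.9 at 1 h, 20.0 and 20.7 at 2 h, 24.1 and 21.0 at 4 h, and 25.0 and 22.7 at 6 h in the uninduced arm. In the induced arm it had 21.3 and 20.3, 20.6 and 18.4, 16.2 and 18.2, 18.3 and 15.9, 17.8 and 15.7, and 15.1 and 15.7 TPM. The induced libraries were below both uninduced ones at 5 of the 6 times, and the arms overlapped at 0.5 h. EIF3K, a subunit of eIF3, had 39.8 and 42.1 TPM at 0 h and 54.7 and 53.6 at 6 h without induction. With induction it had 35.8 and 33.2 TPM at 0 h and 60.6 and 68.0 at 6 h, so that its induced libraries were the lower ones at 0 h and the higher ones at 6 h.

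At 0 h alone no member differed between the arms by the limma test, against 0.0224% of all genes higher and 0.00745% lower. At an unadjusted p under 0.05 there was again no member, and there were 881 of 13416 genes, 528 higher and 353 lower. The 5 members with the smallest p there were EIF2AK3 (0.33 ± 0.18 log2), EIF3K (-0.24 ± 0.14), EIF4EBP2 (-0.17 ± 0.11), EIF3C (2.06 ± 1.31) and EIF1B (-0.17 ± 0.13), with adjusted p from 0.818 to 0.870.

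Averaged over the 6 times, 6 members were higher and 4 lower in the induced arm (limma, adjusted p under 0.05), 10 of 54, and 14.3% of all genes tested were higher and 11.4% lower. The share of members called is therefore not above that of all genes. The counts moved with the processing: 13 members were higher with the replicate number as a block, 14 with protein-coding transcripts alone, 12 without the 3 noncoding RNAs, 10 after quantile normalization and 2 with the chase of 0 to 4 h. Lower were 7 members with median-of-ratios scaling, and 2 without the filter, without the variance trend or with the chase of 0 to 4 h. Higher calls were 60% of the member calls, and 41.7% with median-of-ratios scaling, 80% without the 3 RNAs and 82.4% with protein-coding transcripts; of the calls of all genes they were 55.6%, 45.9%, 65.8% and 67.7%. Of the eIF2 group 4 were higher and 1 lower, of the eIF4 group 1 and 1, and of the eIF3 group none. Among the libraries left out in turn, and the 2 replicate series taken alone, the number of higher members ran from 1 (without replicate 1) to 12 (without the induced 1 h library of replicate 2) and of lower ones from 0 (without replicate 2) to 6. With replicate 2 alone 16.7% of the member calls and 51% of the calls of all genes were higher, and with replicate 1 alone 100% and 72.1%. A series taken alone holds 1 library per arm and time and was fitted with 1 arm difference common to all times. Its counts and shares therefore come from another model than the main ones. The 3 noncoding RNAs named above took from 7.14% to 27.5% of a library's TPM. Their part in the differences between the series was not tested beyond the fits without them.

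Higher in the induced arm were EIF2B1, EIF2D, EIF2AK3, EIF2S3, EIF4G2 and EIF5A. Counts of times and of overlaps for these and the lower members, including EIF4EBP2 above, describe the values that picked them. They add no support to the calls. With 2 libraries per arm, libraries often stand apart at a time without any true difference, and the share over all genes was not computed. EIF2B1 had 27.6 and 24.1 TPM at 0 h, 32.1 and 25.6 at 0.5 h, 35.5 and 25.0 at 1 h, 34.2 and 28.8 at 2 h, 49.4 and 45.9 at 4 h, and 67.5 and 59.7 at 6 h without induction. With induction it had 31.1 and 22.3, 40.6 and 32.0, 43.1 and 27.8, 46.9 and 32.9, 71.3 and 59.2, and 91.3 and 90.5 TPM. Its mean was higher in the induced arm at 6 of 6 times, and the libraries did not overlap at 4 and 6 h (mean difference 0.30 ± 0.092 log2, adjusted p = 0.0232). EIF2D, between 9.38 and 13.7 TPM in the uninduced libraries and between 11.4 and 16.6 TPM in the induced ones, was higher by 0.26 ± 0.073 (adjusted p = 0.018). EIF2AK3 had 22.5 and 21.4 TPM at 0 h, 24.3 and 22.3 at 0.5 h, 24.7 and 24.3 at 1 h, 31.8 and 41.8 at 2 h, 45.6 and 57.6 at 4 h, and 35.8 and 37.7 at 6 h without induction. With induction it had 28.5 and 27.4, 27.9 and 29.5, 27.3 and 32.8, 44.2 and 53.1, 49.0 and 74.7, and 32.2 and 41.5 TPM. It was higher in all induced libraries up to 2 h and overlapped at 4 and 6 h (0.25 ± 0.074, adjusted p = 0.0197).

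EIF2S3, whose values by library stand above, had a higher mean at 6 of 6 times, and its libraries did not overlap at 3 of them (0.21 ± 0.050, adjusted p = 0.00671). EIF4G2 had 213 and 232 TPM at 0 h, 236 and 237 at 0.5 h, 257 and 267 at 1 h, 319 and 325 at 2 h, 556 and 559 at 4 h, and 665 and 659.7 at 6 h without induction. With induction it had 266 and 227, 306 and 254, 312 and 249, 410.4 and 345, 637 and 629, and 828 and 820.0 TPM. The arms overlapped at 0 and 1 h and stood apart at the other 4 times (0.20 ± 0.046, adjusted p = 0.00544). EIF5A was higher by 0.096 ± 0.032 (adjusted p = 0.0358), with mean differences of -0.018 at 0 h and -0.063 at 0.5 h and of 0.28 at 4 h and 0.23 at 6 h.

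Lower in the induced arm were EIF4EBP2, EIF1AD, EIF2S2 and EIF1. EIF4EBP2, the repressor of eIF4E described above, had the smallest p of the 10 (-0.30 ± 0.045, adjusted p = 0.000164), with differences from -0.11 at 0.5 h to -0.60 at 6 h. EIF1AD had a lower mean at 6 of 6 times (-0.26 ± 0.047, adjusted p = 0.00104), by 0.14 log2 at 0 h and by 0.60 at 6 h. Its libraries did not overlap at 5 times. EIF2S2 had a lower mean at 6 of 6 times, by 0.089 to 0.19 log2 (-0.13 ± 0.045, adjusted p = 0.0431), and its libraries did not overlap at 3 of them. EIF1 was lower at 5 of 6 times and higher at 0.5 h, where it had 1775 and 1494 TPM with and 1438 and 1382 TPM without induction (-0.12 ± 0.041, adjusted p = 0.0361). The trimer subunits EIF2S2 and EIF2S3 were thus called in opposite directions, and EIF2S1 was not called (-0.025 ± 0.050). Each replicate series taken alone holds 1 library per arm and time, so the test on means per arm and time cannot be run there. For single members only the differences from the fit of 1 common arm difference are given. No call is therefore shown to hold in both series. Without replicate 1 and without replicate 2 the difference was 0.091 and 0.31 for EIF4G2 and 0.13 and 0.29 for EIF2S3. It was 0.11 and 0.41 for EIF2D, 0.25 and 0.36 for EIF2B1 and 0.33 and 0.18 for EIF2AK3. For EIF4EBP2 it was -0.31 and -0.30, and for EIF1AD -0.27 and -0.24. The call of EIF2B1 was lost without the uninduced 0.5 h or 1 h library of replicate 2 or the induced 2 h library of replicate 1. Those of EIF1, EIF2S2 and EIF5A were lost without most single libraries. Without replicate 1 and without replicate 2 the difference was -0.13 and -0.11 for EIF1, -0.16 and -0.099 for EIF2S2 and 0.079 and 0.11 for EIF5A. All 10 differences had the same sign in both series. The main difference is the average of those of the 2 series and picked these members, so the shared sign is no separate support.

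**Figure D5:**
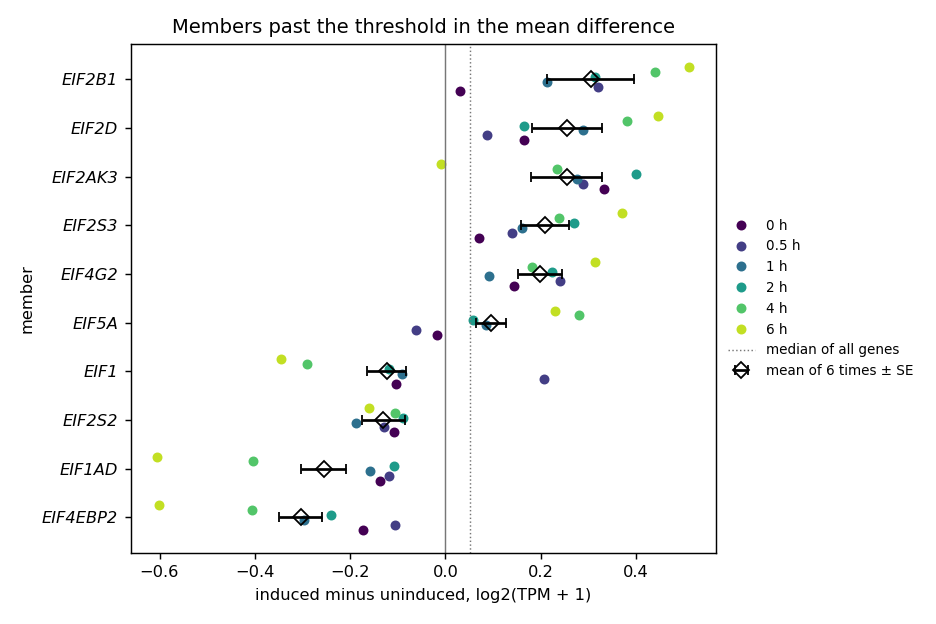
Difference of the arm means of log2(TPM + 1), induced minus uninduced, at each chase time (colored points, 2 libraries per arm) and over the 6 times (diamonds with SE) for the 10 members past the threshold. EIF4EBP2 and EIF1AD reach -0.60 at 6 h, and EIF2B1 reaches 0.51.

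Of the paralog ratios, no slope differed between the arms after adjustment (exact permutation of the arms within times, smallest adjusted p = 0.129, for EIF5A to EIF5A2). That test cannot reach 0.05 for a difference that is absent at 0 h and grows in proportion to time, so it has little to say of such differences. The mean log2 ratio differed for 4 of 10 pairs by the exact permutation test. EIF4B to EIF4H was higher by 0.088 in the induced arm (adjusted p = 0.00514), EIF2AK1 to EIF2AK4 was higher by 0.15, EIF4A1 to EIF4A3 was lower (-0.13) and EIF4G1 to EIF4G2 was lower (-0.15), each of the last 3 at an adjusted p = 0.0343. These 3 were lost with the chase of 0 to 4 h and when any of 10 (EIF2AK1 to EIF2AK4), 13 (EIF4A1 to EIF4A3) or 11 (EIF4G1 to EIF4G2) of the 24 libraries was left out, and the EIF4B to EIF4H difference was kept in each of these fits.

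Of the members with a pyrimidine start, 7 of 9 rose in the uninduced arm and none fell, with slopes from -0.0060 (EIF2D) to 0.37 (EIF4B) and a median of 0.19, and of the 35 other members with a start 24 rose and 3 fell, with a median of 0.15. In the induced arm these counts were 7 of 9 and 23 of 35. Among all genes passing the filter, 55.7% of the 695 with such a start and 46.8% of the 8739 without rose in the uninduced arm, and 54.7% and 45.4% in the induced arm. No test of the difference between the kinds of start was run. No member of either kind passed in the slope difference. Of all genes, 0 of the 695 were higher and 2 lower there, and of the 8739 others 1 was higher and 34 lower.

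Other genes of the pathway moved much as the members did. Of 14 listed elongation and termination genes 12 passed the filter, and 10 rose and 1 fell without, and 10 rose and 2 fell with induction. Of 30 listed regulators of initiation 29 passed, and 22 rose and 3 fell in each arm. Of all genes 42.8% rose and 22.3% fell without, and 41.6% rose and 29% fell with induction. None of either list passed in the slope difference, beside 0.00745% of all genes higher and 0.335% lower. The smallest p of the regulators there were those of DDIT3 (-0.096 ± 0.027, limma adjusted p = 0.11) and PPP1CA (0.079 ± 0.023, adjusted p = 0.13). PELO, which rescues stalled ribosomes, had the smallest p of the first list (slopes -0.49 ± 0.030 and -0.56 ± 0.030, mean difference -0.32 ± 0.047 with adjusted p = 0.000143), followed by GSPT1, the release factor eRF3a (0.25 ± 0.023 and 0.27 ± 0.023), and in the mean difference by ETF1, the release factor eRF1 (0.18 ± 0.045, adjusted p = 0.00953). Among the regulators DDIT3, the stress factor CHOP that is induced when eIF2 is phosphorylated, fell (-0.30 ± 0.019 and -0.40 ± 0.019) and was lower in the induced arm (-0.29 ± 0.053, adjusted p = 0.000922). PPP1R15A, which directs the removal of that phosphate, fell as well (-0.28 ± 0.023 and -0.34 ± 0.023). ATF4, whose mRNA is translated when eIF2 is phosphorylated, was lower by 0.11 log2 in the induced arm (adjusted p = 0.0122). In the mean difference 2 of 12 elongation and termination genes were higher and 1 lower. Of 29 regulators 6 were higher and 2 lower, beside the 14.3% and 11.4% of all genes. The 6 were MCTS1 (0.29), DHX29 (0.24), RPS6KB1 (0.23), NCBP1 (0.20), DENR (0.18) and PAIP2 (0.14), and the 2 lower ones DDIT3 and ATF4. The lists were not tested against these shares.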

How the data were processed

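BrU-labelled cytoplasmic RNA of 24 U2OS libraries was sequenced by the submitters. The authors deposited TPM per RefSeq transcript; RSEM 1.3.0, Bowtie2, Trim Galore and the hg19 build are listed in the submitters' processing notes, without their order. TPM was summed per gene symbol, and genes averaging 1 TPM or more were kept. Depth is unknown, so no counting error is given. limma 3.58.1 (R 4.3.3) was run on log2(TPM + 1) with a variance trend, 1 line per arm (20 residual degrees of freedom) or 1 mean per arm and time (12), two-sided, with Benjamini-Hochberg adjustment over all 13416 genes and a threshold of 0.05. For a replicate series taken alone, with 1 library per arm and time, the mean difference was fitted as 1 arm difference common to all times. Fold changes on this scale understate the change of low genes. Paralog ratios were tested with 100000 permutations of the times in each arm and, between arms, exactly over 46656 assignments within times. Named members were those past a between-arm threshold, the 3 highest and lowest slopes, the most abundant and the smallest slope-difference p of each role, all pair members, those passing in neither arm, and the 2 smallest p of other lists; further members are given to complete roles. Members, lists and tests were chosen with earlier results of these data known. Methods were tested on simulated data. Promoter letters are from RefSeq (GRCh38.p14).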

Additional observations from a re-analysis of the deposited data

How the results depend on the processing

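The counts of rising members, of slope differences, of 0 h differences and of transcripts were within 1.5 times under every alternative run. Members falling in the uninduced arm numbered 9 with median-of-ratios scaling and 2 with the chase of 0 to 4 h, against 4, and 8 fell in the induced arm without RMRP, MIR6723 and RPPH1, against 5. Members higher on average in the induced arm numbered 10 after quantile normalization, 12 without these 3 RNAs, 14 with protein-coding transcripts, 13 with the replicate block and 2 with the chase of 0 to 4 h, against 6. Members lower on average numbered 2 without the filter, 7 with median-of-ratios scaling, 2 without the variance trend and 2 with the chase of 0 to 4 h, against 4. The cause of these changes was not tested. Leaving out each library or replicate series gave ranges of 2 to 4 and 3 to 6 falling members in the 2 arms, 1 to 12 higher and 0 to 6 lower. Changes of sign are listed here only where the main or the alternative value was past the threshold. The uninduced slope of EIF1 became -0.0018 with median-of-ratios scaling. That of EIF1B became -0.052 after quantile normalization. The induced slope of EIF1B became -0.067 after quantile normalization, -0.045 without the 3 RNAs and -0.055 with protein-coding transcripts. The uninduced slope of EIF3K became -0.017 after quantile normalization. That of EIF4A2 became -0.046 with median-of-ratios scaling and -0.042 with protein-coding transcripts. The induced slope of EIF6 became -0.0043 with protein-coding transcripts. The slopes of EIF3C became 0.24 and 0.29 when it was summed with its copy. Of 10754 values of single members and pairs under the alternatives, 10426 stayed on their side of the threshold. These include changes of sign where neither the main nor the alternative value was past it. With their sign kept, 198 were no longer past the threshold and 119 newly passed it. The other 11 changed sign with the main or the alternative value past the threshold.

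The replicate numbers did not meet the criterion for pairing, a correlation above 0.1 in every pair of arms at the same time: deviations of replicate 1 from its group mean correlated between 0.0203 and 0.156 in those 6 pairs, of which 3 were above 0.1. Over all 66 pairs of groups they ran from -0.0364 to 0.253, with a median of 0.0975 and 29 above 0.1, so structure shared between libraries of one number is not excluded. The replicate block, beside raising the higher members in the mean difference to 13, moved no other count of members by over 1.5 times.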
